A study of Mus musculus with 135 samples.

Results

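A set of 10 regulators of lymphoid potential were followed across single haematopoietic stem cells (HSCs) of a young and an old mouse. The genes were taken from a fixed list by symbol: Satb1, Ikzf1, Ikzf2, Bcl11a, Mef2c, Tcf3, Tcf4, Notch1, Dntt and Il7r. All 10 were present among the 15181 genes of the read count table. The rule uses no measured value, but the list was drawn up with earlier results of these data known. The cells were bone marrow HSCs sorted as lineage-negative, Sca-1+, c-Kit+ (LSK), CD150+ and CD48-, from C57BL/6 mice that carry the Vwf-eGFP reporter, in which the von Willebrand factor gene drives green fluorescent protein. Both groups carried the reporter, and no treatment is named for either. The young group was 2-3 months old and the old group 20-25 months old. Each age was 1 mouse, so age, animal, sex-linked differences and capture run cannot be told apart. The spread between cells says how the cells of an animal differ and gives no error for the effect of age, and no p-value was therefore computed between ages.

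Lymphoid fate in blood stem cells is set up by a small group of nuclear proteins before the committed progenitors appear. The Ikaros family zinc fingers Ikzf1 and Ikzf2, the chromatin organiser Satb1, Bcl11a, Mef2c and the E proteins Tcf3 (E2A) and Tcf4 (E2-2) act on lymphoid gene programmes. Id proteins hold the E proteins off DNA, Notch1 is the receptor that starts T cell fate, the interleukin 7 receptor chain Il7r carries the survival signal of committed lymphoid cells, and Dntt (terminal transferase) adds bases at rearranging antigen receptor genes and marks early lymphoid progenitors. The table lists Tcf7l1 and Tcf7l2 on rows of their own, so Tcf3 and Tcf4 are the E proteins here.

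Of 61 young and 74 old cells in the table, 52 young and 62 old passed the quality limits of the study and are used unless stated. Their counted reads ran from 273236 to 5688706 in young cells and from 276316 to 4086659 in old cells, and the median number of genes expressed was 4115.5 and 3901.5. No pair of cells held identical counts. Kit was expressed in 49 young and 61 old cells, and Cd48, which the sort excludes, in 1 young and 0 old cells (0 of 62 allows a share of up to 4.84%). Xist was expressed in 50 young and 8 old cells, and a Y-linked gene in 2 young and 58 old cells. Levels are log2(CPM + 1), CPM being the reads of a gene per 1000000 reads counted on all genes, and a cell expressed a gene when this value exceeded 2. Intervals are 95% exact intervals (Clopper-Pearson for shares, Poisson for summed reads). The libraries carried no molecular identifiers, so these intervals cover counting error only. A 0 was read as up to 3 counts, and a share of 0 as up to 3 cells. For shares this limit lies below the exact one, at 5.77% against 6.85% for 0 of 52 cells.

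Promoter sequences are shown for Satb1 and Mef2c, whose shares of expressing cells had intervals apart between ages at the limit of 2. Dntt was added because its reads were found in young cells alone. They come from RefSeq (GRCm38.p6, the mm10 assembly) and cover the 250 bases before an annotated start, 5′ to 3′ on the gene's strand. Capitals mark matches, on either strand, to 6 short motifs: TGGGAA (the core shared by Ikaros and Rbpj sites), CAGNTG (an E-box), the MEF2 motif, GGAAGT (ETS), TGTGGT (RUNX) and AGATAA, a form bound by GATA factors. TGGGAA and GGAAGT can overlap.
Satb1, first start, chr17:51833291-51833540, minus strand: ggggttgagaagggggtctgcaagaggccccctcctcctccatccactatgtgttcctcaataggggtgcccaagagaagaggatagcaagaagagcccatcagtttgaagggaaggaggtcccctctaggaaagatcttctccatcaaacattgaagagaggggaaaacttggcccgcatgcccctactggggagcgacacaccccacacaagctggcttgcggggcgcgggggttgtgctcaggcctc
Satb1, internal start, chr17:51826589-51826838, minus strand: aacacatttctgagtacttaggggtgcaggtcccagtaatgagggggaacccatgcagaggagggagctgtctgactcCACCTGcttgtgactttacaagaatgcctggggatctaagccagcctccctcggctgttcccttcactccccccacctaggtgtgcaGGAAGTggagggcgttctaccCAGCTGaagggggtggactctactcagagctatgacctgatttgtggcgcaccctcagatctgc
Mef2c, first start, chr13:83503784-83504033, plus strand: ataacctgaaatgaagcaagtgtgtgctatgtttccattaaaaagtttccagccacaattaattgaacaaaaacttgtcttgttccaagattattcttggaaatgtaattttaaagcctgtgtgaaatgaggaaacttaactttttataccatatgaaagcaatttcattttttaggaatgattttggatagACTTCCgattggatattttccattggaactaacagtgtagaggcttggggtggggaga
Dntt, chr19:41029025-41029274, plus strand: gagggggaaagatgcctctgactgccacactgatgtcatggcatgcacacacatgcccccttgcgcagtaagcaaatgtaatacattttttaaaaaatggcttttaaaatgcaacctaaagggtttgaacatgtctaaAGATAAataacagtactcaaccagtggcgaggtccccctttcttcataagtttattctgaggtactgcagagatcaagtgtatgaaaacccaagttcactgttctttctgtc
The first Satb1 sequence held none of the motifs, the internal one held CAGNTG at 2 places and GGAAGT at 1, Mef2c held GGAAGT once as its complement, and Dntt held AGATAA once. Entries were found for 8 of the 10 genes, with 15 windows of 300 bases that also take in the 50 bases after the start. CAGNTG was found in 4 of these 15 windows against 51.4% of all 32851 RefSeq windows, GGAAGT in 7 (23.8%), TGGGAA in 3 (25.6%), TGTGGT in 1 (16.8%), AGATAA in 1 (11.2%) and the MEF2 motif in 0 (3.69%). Satb1, Mef2c and Ikzf1 gave more than 1 window each, with some overlap for Satb1, so the windows are not independent. Satb1 had further internal starts that are not printed, and the window of the printed one held the most matches of its windows. The 300-base window of the first Satb1 start held 1 CAGNTG and 1 GGAAGT. Counted by gene, GGAAGT was found in 4 of the 8, CAGNTG in 3 and TGGGAA in 2. The shares above are per window and cannot be set against these counts, since a gene with more windows has more places for a match. A share by gene over all genes was not computed. A match is a run of letters and not a bound site.

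Of the 10 genes, 1 was at least 1 log2 unit higher in the old cells (Mef2c) and 3 were at least 1 lower (Satb1, Ikzf1 and Ikzf2). Among all 15014 genes with a read, 3.91% were at least 1 higher and 4.49% at least 1 lower. The median difference, old minus young, was -0.24 over the 10 genes and -0.02 over all genes with a read, and 8 of the 10 differences were negative against 8071 of 15014. A narrower class held genes above the expression limit in 10% or more of the cells and took in 7 of the 10, without Satb1. In it 1 of the 7 was at least 1 higher (Mef2c) and 2 at least 1 lower (Ikzf1 and Ikzf2). Among all genes of that class 6.24% were at least 1 higher and 6.98% at least 1 lower.

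**Figure D1:**
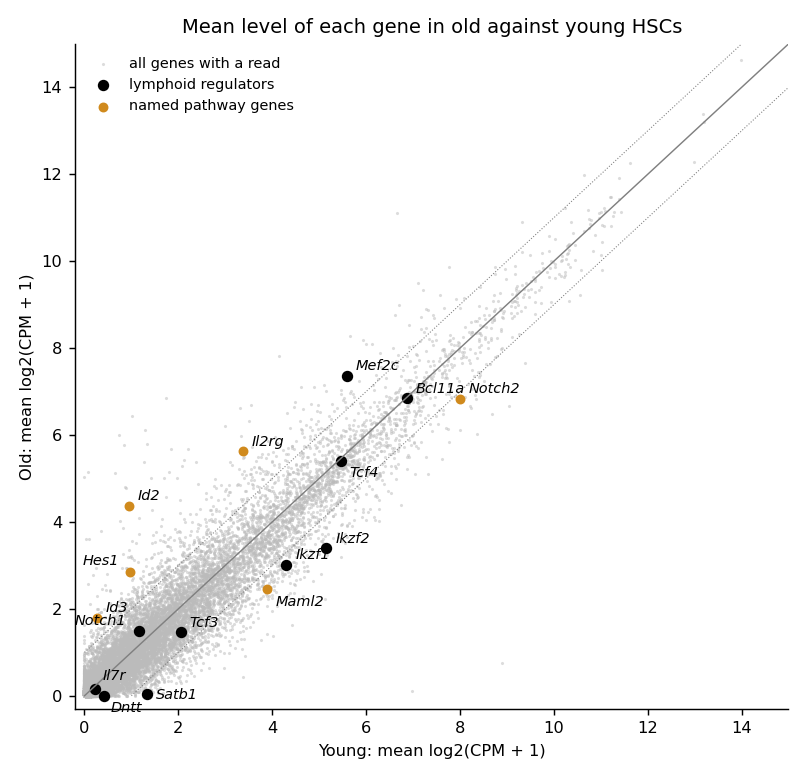
Mean level of each gene in old cells (vertical axis, mean log2(CPM + 1)) against young cells (horizontal axis, same unit), with grey points for all genes with a read, black points for the 10 regulators and orange points for named pathway genes. The dotted lines lie 1 log2 unit from equality. Mef2c lies above the upper line and Satb1, Ikzf1 and Ikzf2 below the lower one.

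Satb1 (chr17:51736187-51833290, minus strand), which folds chromatin and is known for its role in lymphoid specification of stem cells, was a gene of few young cells. Its median was 0 at both ages, its highest level was 10.46 in young and 3.15 in old cells, and its mean was 1.33 ± 2.77 (SD over 52 cells) against 0.05 ± 0.40 (62 cells). Among the young cells 10 of 52 expressed it (19.2%, 9.63 to 32.5), and among the old 1 of 62 did (1.61%, 0.04 to 8.66). The intervals did not overlap, which was the case with the old share lower for 0.733% of all genes with a read. The 10 young levels were 10.46, 8.69, 8.65, 8.57, 6.57, 5.94, 5.78, 3.97, 3.80 and 2.23. The single old cell carried 11 reads, and no other old cell held a read. At least 1 read was counted in 19 young cells. Young cells held 7873 Satb1 reads in all and old cells 11 (interval 5.49 to 19.7), but 62.1% of the young reads came from 1 cell. Without the cell of each age with the most reads, the difference in mean level was -1.15 in place of -1.28.

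Ikzf1 (Ikaros, chr11:11684962-11772930, plus strand) was widespread in both mice and lower on average in the old cells. Young levels ran from 0 through a median of 3.54 to 11.38, and old levels from 0 through 1.17 to 10.21. The ranges overlapped almost throughout, and the means were 4.30 ± 3.57 and 3.02 ± 3.42, a difference of -1.29. Ikzf1 was expressed in 34 young cells (65.4%, interval 50.9 to 78.03) and 27 old cells (43.5%, interval 30.99 to 56.7), intervals that overlapped. In the cells that expressed it the median level was 6.48 in young and 6.50 in old. Over all 135 cells the difference was -0.90, under the limit of 1, and the cells that failed the limits had a mean of 2.10 in young and 3.42 in old.

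Ikzf2 (Helios, chr1:69531207-69687351, minus strand), a second Ikaros family member that pairs with Ikzf1, had the largest negative difference of the 10 genes, -1.76. Young levels ran from 0 through a median of 5.45 to 11.30 and old levels from 0 through 2.15 to 10.53. Its share was 69.2% in young (36 cells, interval 54.9 to 81.3) and 51.6% in old (32 cells, interval 38.6 to 64.5). Unlike Ikzf1, its median level in expressing cells was also lower, at 6.08 against 7.50. Cells that expressed both Ikaros members numbered 23 of 52 young and 13 of 62 old, and cells that expressed neither numbered 5 and 16. These counts are close to what the separate shares of the 2 genes give. Across cells their levels had a Pearson r of -0.0004 in young and -0.003 in old, so the counts show no joint change beyond those shares.

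**Figure D2:**
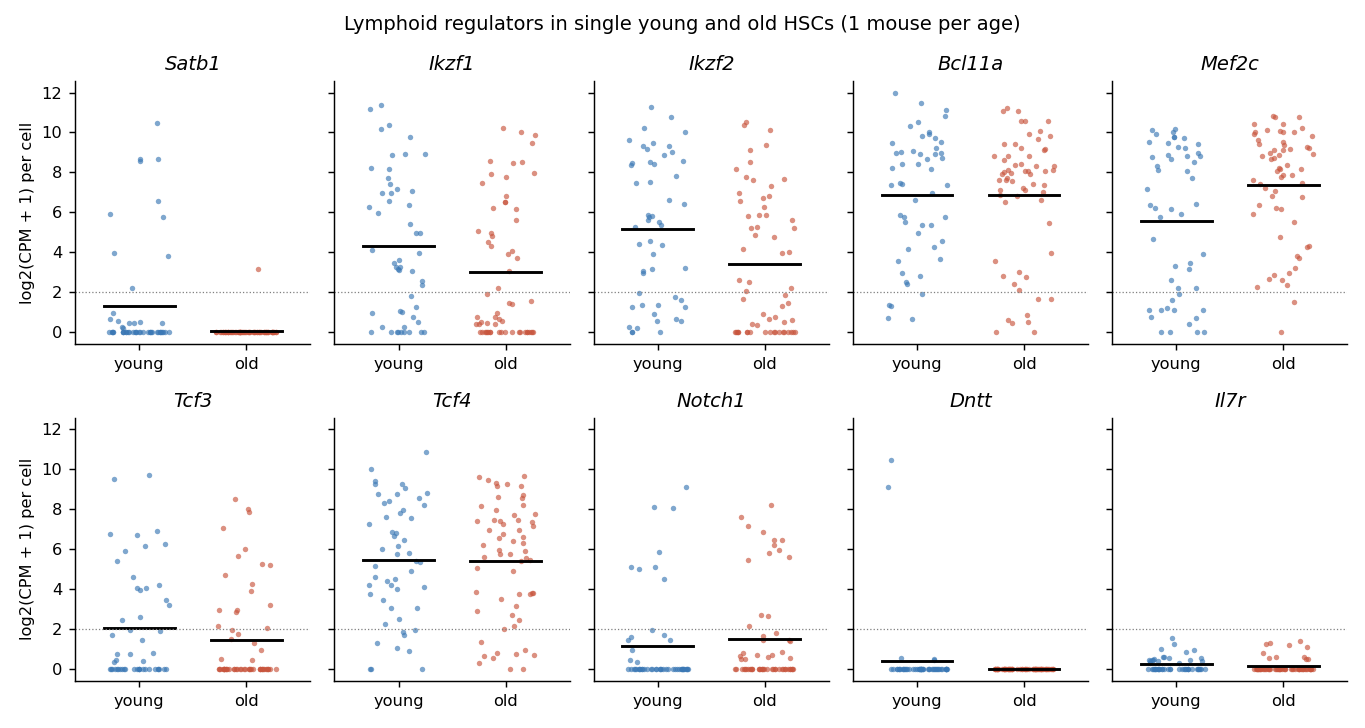
Level of each of the 10 genes in every cell (log2(CPM + 1), vertical axis), with 52 young cells in blue, 62 old cells in red, black bars for means and a dotted line at the limit of 2 for an expressing cell. Satb1 and Dntt lie above the limit almost exclusively in young cells, Mef2c lies above it in 60 of 62 old cells, and Il7r stays below it in every cell.

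Bcl11a (chr11:24076564-24173558, plus strand), a zinc finger repressor needed for B cell development, had nearly the same level in both mice. Its level ran from 0.64 through a median of 7.43 to 11.98 in young cells and from 0 through 7.91 to 11.21 in old cells. The means of 6.87 ± 3.11 and 6.85 ± 3.18 differed by -0.02. It was expressed in 47 young (90.4%, interval 79.0 to 96.8) and 54 old cells (87.1%, interval 76.1 to 94.3).

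Mef2c (chr13:83504017-83667079, plus strand), a MADS box factor that acts in lymphoid progenitors and also in megakaryocytes, was the 1 regulator at least 1 higher in the old cells. Young levels ran from 0 through a median of 6.30 to 10.18 and old levels from 0 through 8.17 to 10.80, and the means were 5.59 ± 3.66 and 7.37 ± 2.76, a difference of 1.77. The groups shared an upper range and differed at the lower end, where the lower quartile was 1.82 in young and 5.98 in old cells. Mef2c was expressed in 38 young cells (73.1%, interval 58.98 to 84.4) and 60 old cells (96.8%, interval 88.8 to 99.6). These intervals did not overlap, as for 0.899% of all genes with a read when the old share is the higher, and for 1.35% of those expressed in 10% or more of the cells. The separation depended on the limit for an expressing cell. At 10 CPM the shares were 33 of 52 young (63.5%) and 53 of 62 old cells (85.5%). At 1 counted read they were 48 and 61 cells. The exact intervals overlapped at both of these limits. In cells above the limit of 2 the median was 8.43 and 8.21. On summed reads, 40103 in young and 60461 in old cells, the log2 ratio was 0.80 after scaling to the total reads of each age. This was below the limit of 1.

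Some megakaryocyte genes were also higher in the old cells. Of 19 listed megakaryocyte genes with reads, 6 were at least 1 higher and 0 at least 1 lower, against 3.91% and 4.49% of all genes with a read, and the list's median difference was 0.71. The other 13 differed by less than 1, from -0.30 for Fli1 to 0.85 for Vwf. Sdpr was 1.02 in young and 6.45 in old cells, Selp (P-selectin) 0.66 and 5.12, Itgb3 (integrin beta 3) 1.43 and 4.27 and Clu (clusterin) 0.24 and 2.94. The paper had named Sdpr, Selp, Itgb3 and Clu as upregulated in these same old cells. Their calls were thus known when the list was drawn up, and the count of 6 is not an independent result. The mean level of the list per cell spanned 0.50 to 4.18 among young cells, against 1.51 to 6.82 among old. Across cells of the same mouse, Mef2c and this list had a Pearson r of 0.41 (52 cells) and 0.29 (62 cells), and 0.39 and 0.31 after each cell was thinned to 250000 reads. All cells of an age share an animal and a run, the list also followed the number of genes per cell (r 0.35 and 0.39), and the part of either in the Mef2c difference was not tested.

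**Figure D3:**
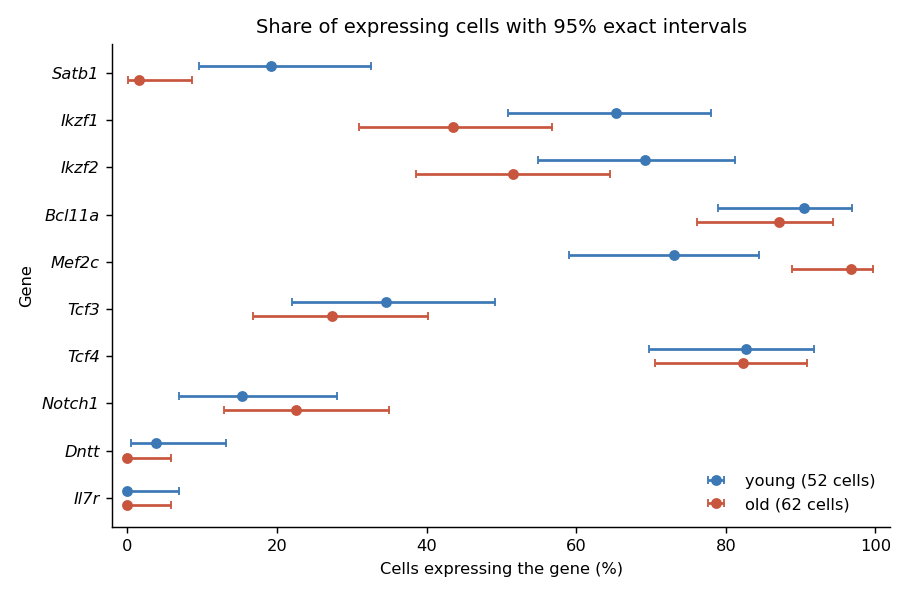
Percentage of cells that expressed each gene (horizontal axis), with young cells in blue and old cells in red and bars for 95% exact intervals. At the limit of 2 for an expressing cell, the intervals of Satb1 and Mef2c do not overlap between ages, and those of the other 8 genes do. Those of Mef2c overlap when the limit is 10 CPM or 1 counted read.

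The E proteins Tcf3 and Tcf4 are the partners through which lymphoid genes are switched on. Tcf4 (chr18:69343429-69687967, plus strand) had a median of 5.59 in young and 5.92 in old cells, with highest levels of 10.85 and 9.68, and was expressed in 43 (82.7%, interval 69.7 to 91.8) and 51 cells (82.3%, interval 70.5 to 90.8). Its difference was -0.06 here and -0.67 over all 135 cells, where the left-out cells had means of 6.25 in young and 2.37 in old. Tcf3 (chr10:80409541-80433976, minus strand) was sparser, at a median of 0.43 and 0, with highest levels of 9.73 and 8.51. It was expressed in 18 young (34.6%, interval 21.97 to 49.1) and 17 old cells (27.4%, interval 16.9 to 40.2), and its mean differed by -0.58. Both E proteins were expressed together in 16 young and 16 old cells.

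Among the Id inhibitors of the E proteins, 2 had larger differences than either E protein. Of the 3 Id genes in the table, Id2 and Id3 were at least 1 higher in the old cells and Id1 was not. Id2 had a mean of 0.94 in young and 4.37 in old cells and was expressed in 8 (15.4%, interval 6.88 to 28.1) and 35 cells (56.5%, interval 43.3 to 69.01). Id3 was 0.27 and 1.79, in 1 and 13 cells. Id1 was 0.81 and 0.59, in 6 and 7 cells.

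Notch1 (chr2:26457902-26503822, minus strand) was found in few cells at both ages. Its median was 0 in both, its highest level was 9.12 in young and 8.20 in old cells, and its share was 15.4% (8 cells, interval 6.88 to 28.1) and 22.6% (14 cells, interval 12.9 to 34.97). The means of 1.17 ± 2.38 and 1.496 ± 2.47 differed by 0.33, and by -0.002 in cells with at least 1000000 reads. Of 23 Notch pathway genes with reads, 1 was at least 1 higher (Hes1, a target of Notch that represses other genes, 0.96 in young and 2.85 in old) and 1 lower (Maml2, a coactivator, 3.88 and 2.45). Psen2, a catalytic part of gamma-secretase, was 1.09 and 2.04, and Rbpj, the DNA-binding partner of the cleaved receptor, 3.19 and 2.59. The paralogue Notch2 passed the limit in 52 of 52 young cells and 61 of 62 old, at means of 8.002 and 6.84, and was the single gene of 10 paralogues that differed by 1 or more, a call lost over all 135 cells (-0.98), where Mef2a passed the limit instead (1.02). Tcf12 was 2.72 and 3.66, Mef2a 1.46 and 2.18 and Ikzf5 1.86 and 2.23.

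Dntt (chr19:41029275-41059525, plus strand) was a gene of few young cells. Only 2 of the 52 expressed it (3.85%, 0.47 to 13.2), 5 held at least 1 read, and 0 of 62 old cells expressed it, which allows a share of up to 4.84%. The 2 cells, F2 and H11 by well, held 2795 and 1670 of the 4469 young reads, at levels of 10.48 and 9.11, and old cells held 0 reads. The share intervals overlapped, and a difference in share was not detectable at this number of cells. Both cells, chosen after their values were seen, also expressed Satb1 (8.65 in F2 and 8.57 in H11), Ikzf1 (10.40 and 11.18), Tcf4 (10.85 and 9.39), Notch1 (4.49 and 5.11) and Flt3, the receptor of early lymphoid progenitors (8.63 and 9.66). Mef2c was low in both, at 3.94 and 3.16, and Tcf3 was at 0 and 0.73. They parted on Bcl11a (10.55 and 0.73), Cd34 (0 and 10.80) and the myeloid gene Cd68 in H11 (9.52). Kit was 6.30 and 6.06, Meis1 10.01 and 9.81, Hlf 10.91 and 7.07, and Cd48 was 0 in both. Several other HSC genes stayed below the limit of 2. Ly6a and Procr were 0 in both, Slamf1 0 and 1.58, Mecom 1.61 and 0, and Gata2 0 and 1.99. Of the 52 young cells, 43 expressed Mecom and 45 Gata2, but only 28 expressed Ly6a, 11 Procr and 9 Slamf1. Lack of Procr or Slamf1 was thus common among young cells and not particular to these 2. H11 also held Itgam (6.72) and Gata3 (7.59), which were 0 in F2. F2 had 1955926 and H11 3022404 counted reads, within the range of the other young cells.

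Il7r (chr15:9506159-9529941, minus strand) passed the limit in none of the cells, 0 of 52 and 0 of 62, which allows shares of up to 5.77% and 4.84%. Reads were counted in 19 young and 11 old cells, with 32 and 22 reads in all and a highest level of 1.55 and 1.40. Of the 10 genes of IL-7 receptor signalling, 1 was at least 1 higher in the old cells and 0 lower. That gene was Il2rg, the chain shared with other cytokine receptors, at 3.38 in young (22 cells, 42.3%, interval 28.7 to 56.8) and 5.62 in old cells (42 cells, 67.7%, interval 54.7 to 79.1). Jak3, the kinase bound to Il2rg, was 1.55 and 0.56, Bcl2 3.17 and 4.01 and Stat5b 2.25 and 3.07.

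**Figure D4:**
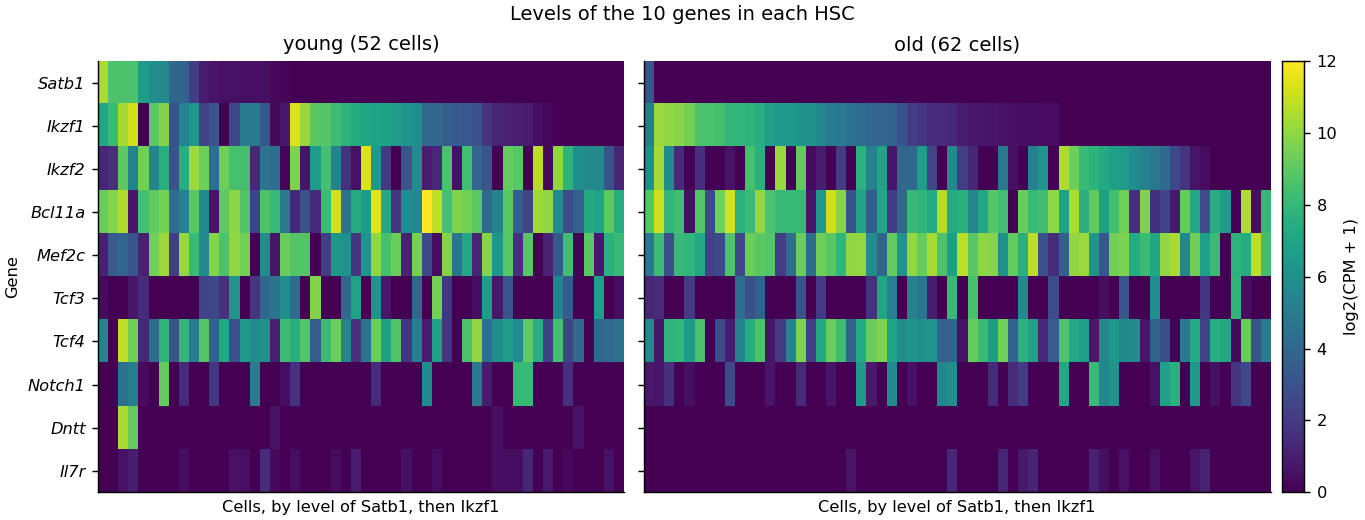
Level of each gene (rows, colour scale log2(CPM + 1)) in each cell (columns), young on the left and old on the right, with cells ordered by Satb1 and then Ikzf1. The 2 Dntt cells stand among the Satb1 cells of the young mouse, and Bcl11a, Mef2c and Tcf4 fill most columns at both ages.

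A cell expressed a median of 4 of the 10 genes at either age. The range was 2 to 8 for young cells and 2 to 6 for old cells, with 5 or more genes in 25 young and 22 old cells. Levels can be compared between genes only per length, as mean log2(CPM per kb + 1) over the exons of each gene. On that scale young cells ranked Bcl11a (4.30), Mef2c (3.47), Ikzf2 (2.84), Ikzf1 (2.71), Tcf4 (2.56), Tcf3 (1.40), Satb1 (0.65), Notch1 (0.54), Dntt (0.35) and Il7r (0.08). Old cells ranked Mef2c (4.74), Bcl11a (4.35), Tcf4 (2.52), Ikzf1 (1.86), Ikzf2 (1.75), Tcf3 (0.98), Notch1 (0.67), Il7r (0.06), Satb1 (0.01) and Dntt (0). Every gap between neighbours in either order was smaller than the larger of the 2 SDs over cells.

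Within a mouse, most pairs of regulators were weakly correlated. Over 15 pairs, from the 6 regulators found in 20% or more of the cells, Pearson r ran from -0.12 to 0.28 in young cells (n = 52) and from -0.21 to 0.23 in old cells (n = 62), values too weak in sparse counts to be read as relations. Satb1 and Ikzf1 had r = 0.40 in young cells, and 0.26 over the 50 cells without the Dntt pair. Satb1 and Dntt had r = 0.52, which rests on the 2 Dntt cells. Of the 10 young cells with Satb1, 9 expressed Ikzf1, 4 Flt3, 0 Tcf3 and 9 Kit, against 25, 1, 18 and 40 of the other 42. The genes most like each regulator, by the mean of r in young and in old cells over 6939 candidates, were Il2rg (0.34), Scaf11 and Zfp941 for Ikzf1, Gon4l (0.36), Siah2 and Baz2b for Ikzf2, Idnk (0.35), Ccdc6 and Spop for Bcl11a, and Vmp1 (0.39), Ogfrl1 and Pkib for Mef2c. For Tcf3 they were Ikbkap (0.46), Rnh1 and Setd3, and for Tcf4 Uhrf1bp1l (0.35), Mesdc2 and Tigd2. These values are the highest of many. All cells of an age share an animal and a run, while their read depth differed.

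Among 14 early lymphoid genes with reads, 0 were at least 1 higher and 0 at least 1 lower in the old cells, with a median difference of -0.17. Hhex was 5.24 and 4.27, Zbtb7a 3.74 and 2.85 and Cd27 5.62 and 4.76, all lower in the old cells by less than 1, and Ets1 was higher, at 1.69 and 2.47. Over all 135 cells the differences of Zbtb7a (-1.09), Cd27 (-1.23) and Ets1 (1.13) were past 1. Flt3 was expressed in 5 young and 2 old cells. Few markers of mature cells differed by 1 or more. Among all genes with a read only 3.91% were at least 1 higher and 4.49% at least 1 lower, so lists this short give few calls at that rate. Some markers were also in too few cells to move a mean by 1, such as Cd4 in 5 young and 0 old cells. The counts below thus do not show that these markers were unchanged. Others were widespread: Cd22 passed the expression limit in 34 young and 37 old cells and Xcr1 in 52 and 62. Of the B cell genes 3 had reads and Vpreb1 was at 0, with 0 higher and 0 lower, as for 10 T and NK cell genes and 9 macrophage and granulocyte genes. Of 6 dendritic cell genes with reads 1 was higher (Clec9a, 0.14 and 1.14, but a difference of 0.99 over all 135 cells) and Zbtb46 was at 0, and of 3 erythroid genes with reads 0 differed by 1 or more and Hba-a1 was at 0. Among 5 genes of lineage proteins, Cd48 and Cd34, 1 was lower. It was Cd34, 3.9995 in young and 2.76 in old, which this sort did not select against, and Itgam was expressed in 8 young and 1 old cells. Of 15 HSC genes 2 were higher, Gata2 (7.11 and 9.49) and Ly6a (3.73 and 5.28), and Slamf1, which encodes CD150, was expressed in 9 young and 15 old cells. Cell cycle genes were lower in 11 of 17, with a median difference of -1.14, and their mean level per cell spanned 0.70 to 7.49 among young cells, against 0.25 to 6.47 among old. The part of cycling cells in the differences of the regulators was not tested. The r of each regulator with the cell cycle list ran from -0.23 (Tcf4) to 0.18 (Mef2c) across the 52 young cells and from -0.18 (Ikzf1) to 0.36 (Tcf3) across the 62 old cells.

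**Figure D5:**
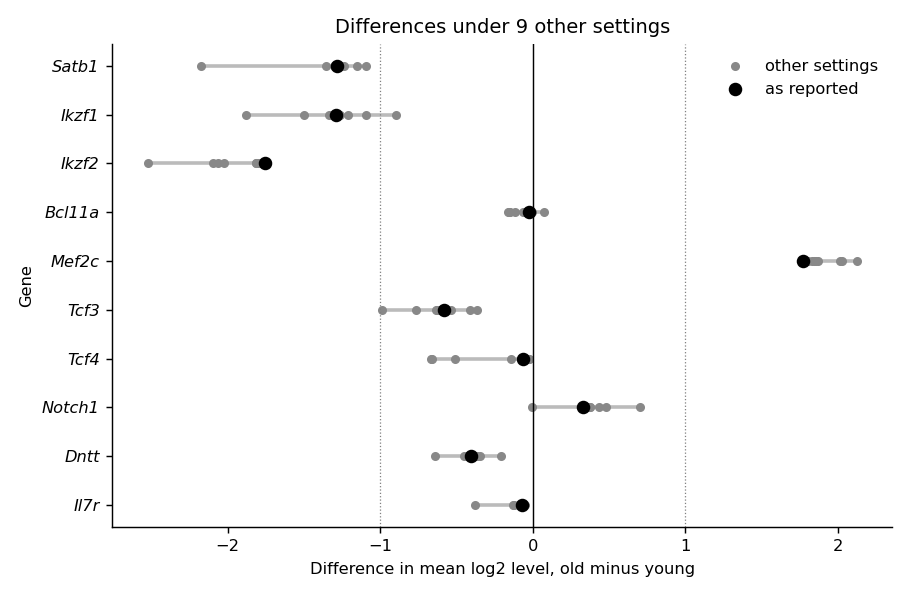
Difference in mean level, old minus young (horizontal axis, log2 units), for each gene as reported (black) and under 9 other settings for cells, depth, scaling or pseudocount (grey), without the ratio of summed reads. Satb1, Ikzf2 and Mef2c stay beyond 1 unit under all 9, and Ikzf1 passes below it in 1.

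The plot of differences by setting shows how far each value depended on a choice. Ikzf1 ran from -1.88 to -0.90, Ikzf2 from -2.52 to -1.36, Mef2c from 0.80 to 2.13, Tcf4 from -0.67 to -0.03 and Bcl11a from -0.31 to 0.08, the summed-read ratio included.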

How the data were processed

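Single HSCs were captured on the Fluidigm C1 system after imaging of the capture sites, their polyA RNA amplified with SMARTer chemistry, and Nextera XT libraries read as 51 bp single reads. The authors deposited raw read counts per RefSeq gene, made with TopHat2 2.0.10 on mm10 with 1 alignment per read and rpkmforgenes, so reads of near-identical genes may be placed on either copy. Strand use in counting is not given in the sources used here. The study's yes or no list of cells passing its limits on mapped reads, mitochondrial share and genes was used. No doublet caller was run.

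From the counts, log2(CPM + 1) was computed per cell with Python 3.11.15, pandas 2.3.3 and scipy 1.17.1, after a test on simulated data. A difference is the mean over old minus the mean over young cells, called at 1 or more. Exon lengths came from GENCODE, and 14287 symbols matched RefSeq. The 10 members and the 14 context lists were chosen with earlier results of these data known. Named were all members, the 3 most correlated genes for each member expressed in at least 20% of cells, and, per list, up to 4 genes with the largest difference among those expressed in at least 10% of cells, plus genes that define the sort. A gene of the early lymphoid list is not reported here and was left out of that list's counts. Alternatives were other cell limits, 0.1 CPM as pseudocount, summed counts, factors from edgeR 4.0.16 and DESeq2 1.42.0 in R 4.3.3, thinning to 250000 reads, and totals without the top 50 genes.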

Additional observations from a re-analysis of the deposited data

How the results depend on the processing

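Each log2 difference was read as a fold change between ages and compared over 10 settings for each gene. Of 100 such fold changes 91 stayed within a factor of 1.5 of the reported one and 9 moved further. By this measure a difference near 0 can change sign and still count as unmoved. Bcl11a (0.08 after thinning) and Notch1 (-0.002 in cells with at least 1000000 reads) did so, while 0 called values changed sign. With the log2 ratio of summed counts, 0 regulators were at least 1 higher (1 as reported) and 5 were at least 1 lower (3 as reported), since Tcf3 (-1.45) and Dntt passed the limit and Mef2c (0.80) did not. That ratio weights cells by their reads, and 41.3% of young Tcf3 reads came from 1 cell. Dntt has 0 old reads, so its value of -10.33 is taken against the floor of 3 counts. With 0.1 CPM as pseudocount Satb1 was -2.18, Ikzf1 -1.88 and Ikzf2 -2.52. Tcf4 was -0.67 over all cells and -0.66 in cells with at least 1000000 reads, where 5 young and 11 old cells drop out. Of 100 shares 18 fell outside the reported 95% interval. All of these came from defining an expressing cell by 1 counted read or by 10 CPM, and none from other cell limits or thinning. The median number of regulators per cell stayed within 1.5 times the reported one under all 4 alternatives for each age. Scaling with edgeR or DESeq2 factors put the median of all genes at -0.01 and -0.02. Leaving out the cell of each age with the most reads of a gene, an alternative chosen after seeing the data, left both counts at 1 and 3. No paired analysis was possible because each age is 1 mouse and the labels pair no cells. With 1 mouse per age no setting gives an error for age.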
